A study of Mus musculus with 15 samples.

Results

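Adrenomedullin, encoded by Adm, was followed across 15 single cells sorted from mouse inguinal white fat. Adm is 1 of the 8446 rows of the deposited table, and it was chosen with its values in these cells known. The rule divided the cells by the Adm value itself: the 8 Adm-high cells stood at 5 or more and the 7 other cells below it. The values that made this division are therefore given as a description, and so are the values of all other genes set against it.

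All cells came from the inguinal fat of adult C57BL/6 mice that carried Prrx1-CreERT and Tomato and had received tamoxifen (2 mg per 30 g body weight, once daily on 3 days). In such animals a tamoxifen-activated Cre recombinase follows the expression of Prrx1, a homeobox gene of connective tissue, and turns on the red Tomato reporter. Tissue was digested with collagenase (2 mg/ml, 1 h, 37 °C), and Tomato+ cells were sorted and then picked by eye under fluorescence. The labels give no untreated or Tomato-negative group, so both sets of cells share genotype, tamoxifen, digestion and sorting, and no second condition is given against which Adm could be tested. No animal is named, so the 15 cells were treated as a single sample and described without p-values.

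Adrenomedullin is a secreted peptide of the calcitonin gene-related peptide family. It widens blood vessels, tightens the endothelial barrier and is required for lymphatic growth. It is cut from a larger precursor and gains its active amidated end from the enzyme PAM. Its receptor is CALCRL, which reaches the cell surface together with RAMP2 or RAMP3, while ACKR3 binds and removes the peptide. The gene is a well-known target of hypoxia-inducible factors, and its mRNA also responds to inflammatory and other stress signals in many cell types.

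The mouse gene (ENSMUSG00000030790) lies on chromosome 7 of GRCm38, from 110627661 to 110629820 on the plus strand. Its longest annotated transcript has 4 exons and 1390 nt, of which 552 nt in 3 exons are coding. The antisense gene Gm28863 (110626281 to 110639358, minus strand) spans the locus without sharing exonic sequence with Adm, and it has no row in the table used. The 250 bases before the RefSeq start of Adm (chr7:110627407-110627656, plus strand, GRCm38.p6) are printed because the gene is known for hypoxic control. Those of Fgf7 (chr2:126034408-126034657, plus strand) are printed because, among the genes named, it ranked most like Adm over the cells. Capitals mark ACGTG or GCGTG, the core letters of the hypoxia response element, on either strand, so that GCGTG on the minus strand reads CACGC.
Adm: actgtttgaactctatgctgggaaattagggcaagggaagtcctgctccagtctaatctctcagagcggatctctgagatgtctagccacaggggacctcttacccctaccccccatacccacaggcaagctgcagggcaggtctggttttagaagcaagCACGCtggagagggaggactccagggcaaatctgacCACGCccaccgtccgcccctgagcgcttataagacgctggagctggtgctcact
Fgf7: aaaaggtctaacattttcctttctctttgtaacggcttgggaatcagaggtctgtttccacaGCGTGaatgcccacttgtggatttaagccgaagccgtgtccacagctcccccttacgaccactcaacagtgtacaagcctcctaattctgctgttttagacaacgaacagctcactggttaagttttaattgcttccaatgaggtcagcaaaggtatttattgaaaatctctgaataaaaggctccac
The Adm window held GCGTG at 2 places, both on the minus strand, whose matches began 90 and 54 bases before the start, and it held no ACGTG. The core GCGTG occurred at least once in 28.2% and at least 2 times in 8.63% of the 32851 RefSeq promoter windows of this length, and either core in 38.6%. The Fgf7 window held GCGTG once, 188 bases before the start on the plus strand, and no ACGTG. Outside the capitals, the Adm window held TATAA, the TATA box core, on both strands at overlapping places 28 and 27 bases before the start, and GGGCGG, the GC box, 42 bases before it. TATAA was present in 22.8% and GGGCGG in 32.7% of all windows. TGANTCA, the AP-1 core, was in neither window and in 6.75% of all windows. Both strands were searched, so a palindrome such as CACGTG counts on each. A match describes letters and is not a measured binding site.

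Values are log2(FPKM + 1), where FPKM is fragments scaled to transcript length and sequencing depth. Adm stood at 9.35, 9.01, 8.89, 8.65, 7.92, 7.62, 7.20 and 6.25 in Adm-high cells 6, 7, 10, 4, 2, 8, 14 and 5, in that order. It stood at 2.43, 2.18, 1.05, 0.91, 0.58, 0.36 and 0.00 in the other cells 3, 1, 9, 15, 12, 11 and 13. No cell lay between 2.43 and 6.25. The Adm-high cells averaged 8.11 ± 1.06 and the other cells 1.07 ± 0.91 (SD over 8 and 7 cells of 1 sample). In FPKM the Adm-high cells spanned 75.2 to 652 and the other cells 0 to 4.40.

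The columns share 1 distribution, so the rank of Adm within a cell follows from its value and is given only to show the level. Between 177 and 1310 rows, or 2.10% to 15.5% of the table, stood above Adm in the Adm-high cells, whereas 41.4% to 83.6% did so in the other cells. Adm was thus among the higher mRNAs of cell 6 and below the middle of the table in 5 of the others. A value of 5 or more was held by 53.3% of cells (exact binomial 95% interval 26.6% to 78.7%, which covers counting error only). At 5 FPKM the same 8 cells passed. At 1 FPKM, the level used here for detection, cells 3, 1 and 9 joined them and 73.3% of cells passed (44.9% to 92.2%).

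The order within the Adm-high cells runs over 3.10 on the log2 scale with neighbours no more than 0.95 apart, and single cells have no repeat measurement, so neighbouring cells cannot be ranked.

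**Figure D1:**
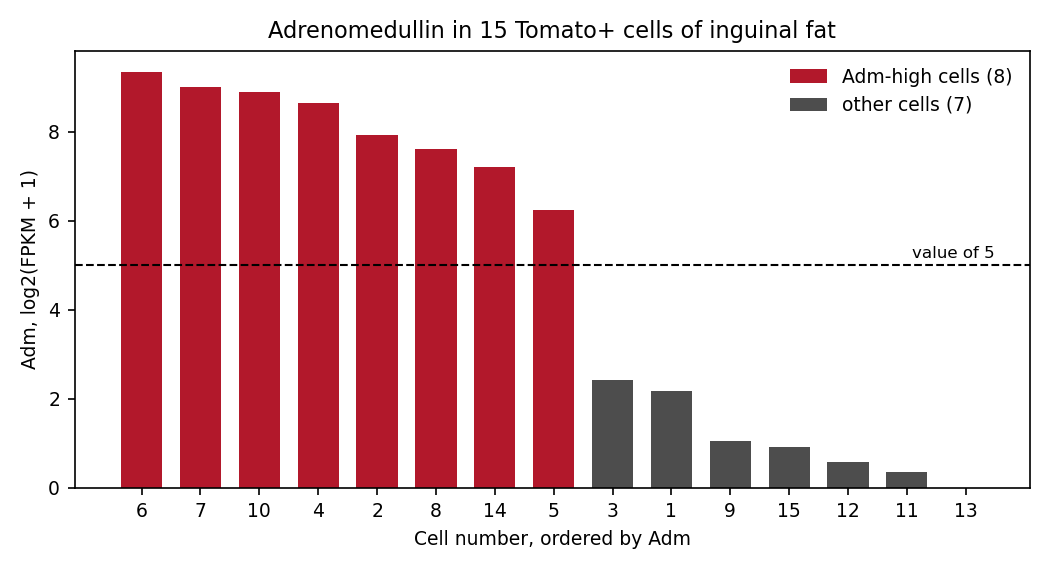
Adm in each of the 15 cells as log2(FPKM + 1), 1 bar per cell, ordered from the highest to the lowest; red bars are the 8 Adm-high cells, grey bars the 7 other cells, and the dashed line is the value of 5. The red bars end at 6.25 and the grey bars start at 2.43, with no cell between them.

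Other measures of the cells did not divide them in the same way. A rough inverse measure of how many genes a library caught is the count of rows that share its lowest value. This count was 930 to 1877 (median 1266.5) in Adm-high cells and 1182 to 1974 (median 1576) in the other cells, and the ranges overlapped. Its part in the differences described here was not tested. Prrx1, whose promoter drives the Cre, was detected in 8 of 8 Adm-high cells at 1.12 to 6.37 (median 5.09) and in 4 of 7 other cells at 0.22 to 7.56 (median 2.08). The cell with the most Prrx1, cell 11, had 0.36 for Adm.

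The cells carried fat stromal progenitor genes on both sides of the Adm division. Pdgfra, a growth factor receptor of adipose progenitors, was detected in 8 of 8 Adm-high and 6 of 7 other cells, and Cd34, a surface marker of these cells, in 8 of 8 and 7 of 7. The mean over the 17 progenitor genes used was 8.06 ± 0.52 (6.99 to 8.59) in Adm-high cells and 7.48 ± 1.33 (5.49 to 9.31) in the other cells. Markers of other cell types were high in single cells on both sides. Genes of contractile vessel-wall (mural) cells are given first. The mean of 5 mural genes was 8.72 in cell 5, the lowest of the Adm-high cells, and 5.83 in cell 13, which had no Adm, against 0.39 to 2.37 elsewhere. Rgs5, a pericyte gene, stood at 10.18 in cell 5 and 6.90 in cell 13. The defining mesothelial, epithelial and skeletal muscle genes had no row. Of the endothelial list only Tek, Esam and Plvap had one, of the immune list only Csf1r, of the Schwann cell list S100b and Mbp, and of the erythroid list Alas2, and none differed by 2 or more between the sets. Esam, a junction protein of endothelial cells, stood at 7.83 in cell 5 and 10.90 in cell 13. Plvap, of endothelial pores, was at 4.94 to 6.86 in 4 Adm-high cells (4, 2, 8 and 14) and at 4.59 to 7.10 in 3 other cells (3, 12 and 11), and at 0.54 or less elsewhere. Csf1r, the macrophage growth factor receptor, reached 6.39 in cell 2 and 3.35 in cell 7, against 3.81 in cell 1, and S100b, a glial calcium-binding protein, reached 6.07 in cell 2, against 5.17 in cell 12. Tek, an angiopoietin receptor, was detected only in cell 1, at 5.04. The part of these markers in the differences described here was not tested.

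Of the ligands of this receptor family only Adm had a row. The receptor side was mixed. Rows were called higher or lower where the means of the Adm-high and other cells differed by 2 or more on the log2 scale, which is 4-fold. Of the 5 receptor genes detected in 3 or more cells, 1 was higher in Adm-high cells by this rule (Ramp1) and 0 were lower, while 4.12% of all 7424 rows were higher and 3.73% were lower. Calcrl passed the detection filter only through Adm-high cells, so no median of the list is given. With 5 genes the share rests on single members, so they are given one by one.

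Ramp1, the RAMP that gives CALCRL its preference for calcitonin gene-related peptide, divided the Adm-high cells themselves. It stood at 5.65, 6.31, 4.73 and 5.92 in cells 2, 8, 14 and 5, the 4 lowest of the Adm-high cells, and at 0.12, 0.36, 0.28 and 1.26 in cells 6, 7, 10 and 4, the 4 highest. Among the other cells it reached 3.39 in cell 11 and at most 0.17 elsewhere. The mean was higher by 2.53 in Adm-high cells, while the rank correlation with Adm inside the 8 Adm-high cells was -0.86. This correlation rests on 8 cells, and no share of all rows at that size is given beside it. The split in Ramp1 falls between cells 4 and 2, neighbours in Adm (8.65 and 7.92) that cannot be ranked.

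Calcrl, the receptor proper, was near its floor in most cells. It was detected in 3 of 8 Adm-high cells, with values of 5.83, 3.40 and 1.25 for cells 10, 4 and 14, and in 0 of 7 other cells, where it reached 0.92 at most. Ramp2, its partner for adrenomedullin, was common on both sides, at 4.16 to 8.88 (median 7.41) in Adm-high cells and 0.41 to 9.34 (median 7.49) in the other cells, though its exons overlap those of Vps25 and reads may be shared. Ramp3 was detected in cell 5 at 1.07 and in cell 1 at 5.93 and in no other cell. Cell 10 was thus the 1 cell with Adm, Calcrl and Ramp2 all at a value above 4. Ackr3, which scavenges the peptide and the chemokine CXCL12, was detected in 8 of 8 Adm-high cells and 6 of 7 other cells. It stood at 2.42 to 8.85 (median 5.91) in Adm-high cells and 0.73 to 8.81 (median 3.23) in the other cells, a difference of 1.41 with wide overlap. Crcp, a small protein that couples this receptor to its signal, differed by -1.56.

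Among the genes that make or break down the peptide, 0 of the 10 used were called. Pam, whose product amidates adrenomedullin, stood at 7.05, 5.25, 7.23, 6.23, 2.28, 1.67, 1.15 and 2.70 in Adm-high cells 6, 7, 10, 4, 2, 8, 14 and 5. It was above 5 in cells 6, 7, 10 and 4 and below 3 in cells 2, 8, 14 and 5. Cells 4 and 2, on either side of this split, are neighbours in Adm (8.65 and 7.92) and cannot be ranked. In the other cells Pam lay between 0.65 and 6.45 (median 2.68), and the difference of means was 0.76. Ace, a peptidase of the vessel wall, was higher by 1.75, from 1.53 to 6.82 in Adm-high cells and 0.31 to 5.07 in the other cells. Mmp2, a metalloprotease that can cleave adrenomedullin, was high on both sides, with medians of 9.19 in Adm-high cells and 8.80 in the other cells. Cpe, Mme and Ece1, which trim or degrade peptides, differed by 0.38, 0.28 and 0.05. Furin, a precursor convertase, was detected in 0 of 8 Adm-high and 3 of 7 other cells, with a difference of -0.86. It passed the detection filter only through the other cells.

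**Figure D2:**
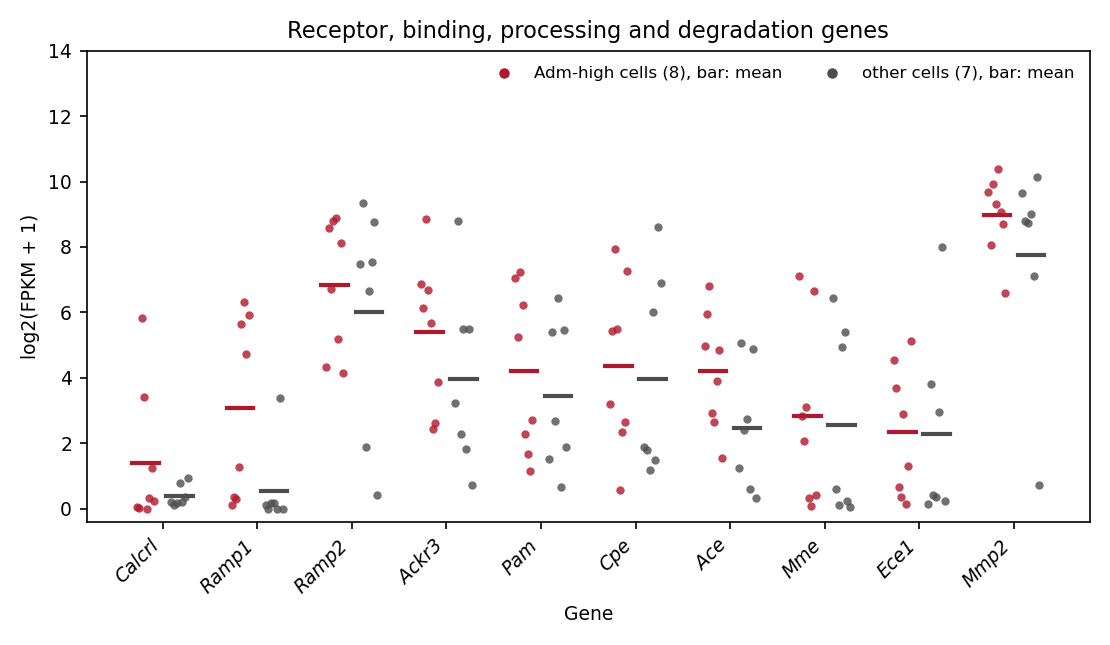
Genes of the adrenomedullin system as log2(FPKM + 1), 1 point per cell and a bar for the mean, with the 8 Adm-high cells in red left of the 7 other cells in grey. Ramp1 forms a high and a low group among the red points, and the other genes overlap.

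Of 6 genes that sense oxygen, 0 were higher and 1, Vhl, was lower (16.7% of the list, against 3.73% of all rows). Vhl passed the detection filter only through the other cells, so this share is not read as a result about the list. Hif1a, the inducible subunit of the hypoxia factor, stood at 0.30 to 4.96 (median 3.65) in Adm-high cells and 1.43 to 5.45 (median 3.70) in the other cells. The differences were -0.13 for Epas1, its relative HIF-2α, 0.19 for Arnt, the partner of both, and -0.34 for Egln2, a prolyl hydroxylase that marks them for destruction. Egln1, the main such enzyme and itself a hypoxia target, was higher by 1.54. Vhl, which delivers the hydroxylated factors to degradation, was the gene called. It was detected in 0 of 8 Adm-high cells and in 3 of 7 other cells, with values of 7.39, 6.07 and 4.76 for cells 15, 13 and 11, so its lower mean (a difference of -2.57) rests on 3 cells. Leaving out cell 15 or cell 13 ended the call, with -1.77 without cell 15.

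Other targets of hypoxia did not follow Adm as a list. Of 31 used, 1 was higher (3.23%, against 4.12% of all rows) and 0 were lower, and the median difference was 0.10. The list averaged 3.86 ± 0.25 in Adm-high cells and 3.83 ± 0.58 in the other cells. P4ha2, a collagen prolyl hydroxylase subunit, was the gene called, at 4.38 to 8.11 (median 6.70) in Adm-high cells and 0.23 to 7.74 (median 1.61) in the other cells, with 3 of the others inside the Adm-high range. Vegfa, the main endothelial growth factor, stood at 5.15, 4.54, 3.45, 5.75, 1.07, 1.53, 1.61 and 4.38 in Adm-high cells 6, 7, 10, 4, 2, 8, 14 and 5, and at 1.56, 5.07, 3.72, 1.68, 0.85, 1.06 and 0.28 in cells 3, 1, 9, 15, 12, 11 and 13. Its difference of 1.41 was below the call, and cells 1 and 9 had Vegfa without high Adm. Ldha and Slc2a1, for lactate production and glucose entry, were lower by 1.15 and 1.00 in mean. They were named outside the rule for naming genes, and 17 differences of the list were above 0 and 14 below. The 2 lowest differences of the list were just short of the call for Insig2 and -1.80 for Plod2.

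Stress genes were examined list by list. Of 24 immediate early genes, which respond within minutes to stimulation or to tissue digestion, 1 was higher (4.17%, against 4.12% of all rows) and 0 were lower. The list averaged 5.18 ± 0.87 in Adm-high cells and 5.04 ± 1.60 in the other cells. The gene was Nr4a1, an orphan nuclear receptor, at 3.09 to 7.21 (median 4.42) in Adm-high cells and 0.82 to 5.78 (median 2.43) in the other cells. It lay at the call threshold, with a difference of 2.00, and leaving out any 1 of cells 5, 8, 14, 1, 9, 11 or 12 left 0 genes of the list called. Fos, the best-known member, had a median of 10.51 in Adm-high cells and 10.83 in the other cells.

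Of 15 heat shock genes, 2 were higher (13.3%) and 0 were lower, with a list median of -0.22. Over all rows 4.12% were higher and 3.73% were lower. Hspa1a, the inducible HSP70, was detected in 8 of 8 Adm-high cells at 1.06 to 8.75 (median 3.81) and in 2 of 7 other cells, at 6.25 in cell 3 and 2.25 in cell 13. Its level is uncertain, since reads may be shared with a near-identical copy of the gene. Hspb1, the small heat shock protein HSP27, was higher by 2.36, from 2.54 to 9.48 in Adm-high cells and 0.89 to 7.33 in the other cells, and leaving out any 1 of cells 5, 9, 11 or 12 ended the call, with 1.87 without cell 5. In the unfolded protein list 0 of 17 genes were higher and 1 was lower, the apoptosis-linked factor Ddit3 (-2.25), and 14 of the 17 differences were below 0. The median of that list was -0.32, and it lay between -0.74 and -0.29 when 1 cell was left out, against a median of 0.01 over all rows. Housekeeping genes had a median of -0.28 (-0.42 to -0.06 when 1 cell was left out) and the oxidative stress list one of -0.23. A median below 0 was thus not particular to the unfolded protein list. The oxidative stress list had 1 of 15 higher, the glutathione transferase Gstm1 (2.33), the glucocorticoid list had 0 of 11 called with a median of 0.46, and the p53 list had 1 of 8 lower, Gadd45a (-2.12). Each of these calls ended when 1 cell was left out, with Ddit3 at -1.72 and Gstm1 at 1.13 without cell 13, and Gadd45a at -1.10 without cell 9.

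Of 19 inflammatory cytokines, chemokines and related genes, 0 were higher and 4 were lower in Adm-high cells (21.1%, against 3.73% of all rows). The list median was -0.02. Ccl2, a chemokine that draws monocytes, stood at 3.52 to 8.06 (median 4.29) in Adm-high cells and 2.60 to 13.69 (median 7.26) in the other cells, and the highest values were 13.69 in cell 9 and 10.61 in cell 15. Vcam1, a leukocyte adhesion molecule, was at 0.57 to 4.09 (median 1.93) in Adm-high cells and 2.99 to 6.93 (median 4.14) in the other cells, and only cell 10 of the Adm-high cells reached the range of the others. Ptx3, a pattern-recognition protein, and Cxcl10, an interferon-induced chemokine, differed by -2.42 and -2.26. Without cell 12 or cell 15, 2 of the list were lower, and without cell 9 Ccl2 differed by -1.73. Other members went the opposite way without reaching the call, among them Cxcl14 (1.75) and Ccl7 (1.64).

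Angiogenic ligands went in both directions. Of 20 used, 1 was higher (5.00%, against 4.12% of all rows) and 0 were lower. In this list 10 differences were above 0 and 10 below, and the median was -0.00. The list averaged 4.39 ± 0.59 in Adm-high cells and 4.25 ± 0.79 in the other cells. The gene called was Fgf7, the keratinocyte growth factor, which fibroblasts send to epithelia. Cxcl12, which guides progenitors and vessels, was higher by 1.62, but cell 13 alone lay at 0.56 and the other cells otherwise reached 2.58 to 8.60, against 3.00 to 9.94 in Adm-high cells. Angptl2 and Ptn differed by -1.71 and -1.65. Among 14 angiogenesis inhibitors Timp1, a metalloprotease inhibitor, was higher by 2.12 (1.44 without cell 13) and Cxcl10 lower, and among 8 vascular receptors Acvrl1, a BMP9 receptor, was higher by 2.94 (0.00 to 7.32 in Adm-high cells and 0.43 to 3.06 in the other cells).

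The stromal list that stood apart was that of Cd142+ cells, a perivascular fat stromal population described in mice as restraining fat cell formation. Of its 9 genes used, 5 were higher (55.6%, against 4.12% of all rows) and 0 were lower (against 3.73%). All 9 had a difference above 0, with a median of 2.16. The list mean was 4.78 ± 1.88 in Adm-high cells and 2.91 ± 1.05 in the other cells. It was 8.25 in cell 2 and 7.10 in cell 8 and 3.11 to 4.54 in the remaining Adm-high cells, against 0.79 to 4.05 in the other cells. Without cell 2 the count was 2 genes, and without cell 8 it was 3.

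F3 encodes tissue factor, which is CD142 itself and starts blood clotting. F3 stood at 3.00, 7.83, 7.41, 6.90, 10.90, 9.26, 6.76 and 3.94 in Adm-high cells 6, 7, 10, 4, 2, 8, 14 and 5, and at 0.33 in cell 13 to 6.93 in cell 15 (median 4.16) among the other cells. Among the Adm-high cells it was lowest in cell 6, which had the most Adm, and the difference of means was 2.96. Gdf10, a BMP-family ligand, reached 8.69, 8.03 and 6.91 in cells 2, 8 and 14, against at most 4.87 in the other cells, and differed by 2.95. Fmo2, a flavin monooxygenase, was at 8.70 and 8.32 in cells 2 and 8, and 4.83 was its highest value elsewhere. Clec11a, a bone growth factor, and Gas6, a ligand of the TAM receptors, were higher by 2.18 and 2.16. Cells 2 and 8 are also among the 4 cells in which Ramp1 was above 4, together with cells 14 and 5.

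Progenitor and preadipocyte lists differed less. Over all rows 4.12% were higher and 3.73% were lower. Of the 17 progenitor genes 0 were called, with a median of 0.46 and the range of differences from Thy1 (-1.53) to Prrx1 (1.86). Of the 18 genes of Dpp4+ progenitors, the reserve population of the fat septa, 2 were higher (11.1%), Anxa3 and Cd248, by 2.81 and 2.00. Cd248 lay at the call threshold, and leaving out any 1 of cells 4, 5, 6, 7, 10, 3, 9 or 13 ended its call, with 1.36 as the lowest value (without cell 13). The highest list mean, 7.93, was in cell 1 outside the Adm-high set. Of 17 committed preadipocyte genes Hsd11b1, which activates glucocorticoids, was higher by 2.86 and Vcam1 was lower. Of 25 matrix genes 3 were higher and 1 lower. Mmp3, the protease stromelysin, was at 3.96 to 11.53 (median 8.84) in Adm-high cells and 0.58 to 7.22 (median 3.74) in the other cells. Eln, elastin, and Timp1 were higher by 2.83 and 2.12. Postn, periostin, was lower by 4.10 in mean, since it stood at 12.98, 11.88 and 11.58 in cells 9, 11 and 13 and at 6.46 or less in all others. None of 10 adipogenic transcription factors and none of 6 mature adipocyte genes was called.

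**Figure D3:**
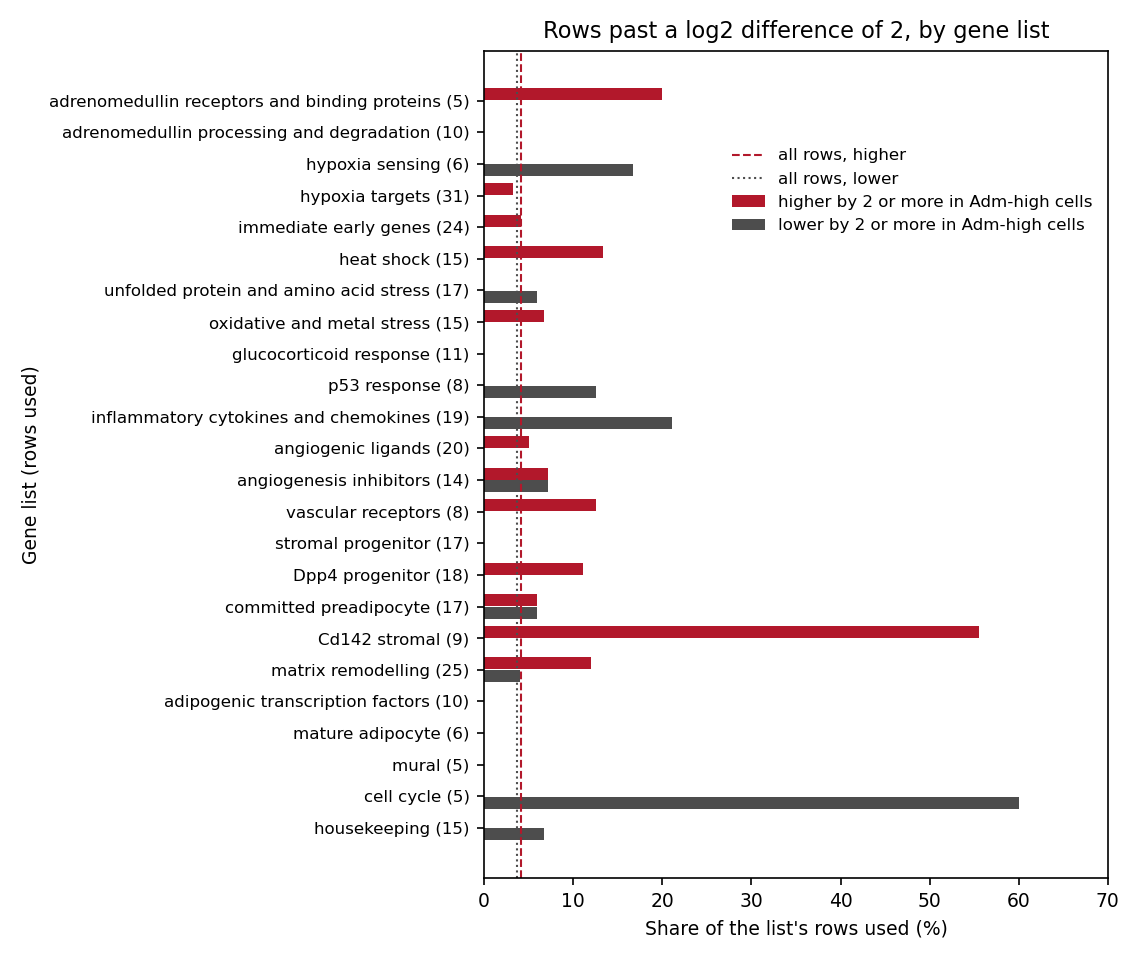
Share of each gene list that was higher (red) or lower (grey) by 2 or more on the log2 scale in the 8 Adm-high cells, set against the 7 other cells; the number of rows used stands beside each name, and the vertical lines mark 4.12% and 3.73% of all rows. The Cd142 list reaches 55.6% on the higher side and the 5 cell cycle genes 60.0% on the lower side, while hypoxia targets (3.23%), immediate early genes (4.17%) and angiogenic ligands (5.00%) lie near the red line on the higher side.

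Cell cycle genes were lower in Adm-high cells in 3 of 5 cases (60.0%), but through 1 cell. Cdk1, Ube2c and Prc1, which act in mitosis, stood at 11.34, 11.75 and 11.37 in cell 13, and without that cell 0 were called. Housekeeping genes had a mean of 6.79 ± 0.23 in Adm-high cells and 7.06 ± 0.33 in the other cells, with a median difference of -0.28. Of the 15 used, 0 were higher and 1 was lower (6.67%, against 3.73% of all rows), Gusb, by -2.74.

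Genes were ranked by the Spearman correlation of their values with Adm over the 15 cells, among 5839 rows detected in 5 or more cells. These are cells of 1 sample that share a table and differ in library breadth, and Adm falls into 2 groups of cells. The correlation therefore mostly restates the division and is given with no p. Its values inside each group follow for the genes named here, and many levels ranked in the other cells lie below detection. No share of all rows is set beside the values inside a group. Over the 15 cells, a value of 0.7 or more was found for 37 rows (0.634%) and of -0.7 or less for 19 rows (0.325%). These counts cover all ranked rows, while the genes named from the ranking are protein-coding genes with a named symbol.

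Among the genes named, Fgf7 stood first with 0.89, with 0.81 inside the 8 Adm-high cells and 0.89 inside the 7 other cells. The value for the other cells ranks mostly levels below detection, since Fgf7 was detected there in 1 cell and Adm in 3. Fgf7 was at 6.53, 6.32, 5.73, 0.77, 6.16, 5.47, 5.03 and 0.67 in Adm-high cells 6, 7, 10, 4, 2, 8, 14 and 5, and at 6.09, 0.73, 0.53, 0.17, 0.13, 0.34 and 0.00 in cells 3, 1, 9, 15, 12, 11 and 13. Cells 4 and 5 had Adm without Fgf7, cell 3 had Fgf7 with little Adm, and cell 3 was also the highest of the others for Adm. The difference of means was 3.44.

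Sgsm2, a regulator of small GTPases, also had 0.89, with 0.76 inside the Adm-high cells and 0.75 inside the others, but its level was low, with medians of 1.61 in Adm-high cells and 0.14 in the other cells. The next were Fbxo7 (0.83), a ubiquitin ligase subunit, Mbd1 (0.81), which binds methylated CpG, Fech (0.81), the last enzyme of haem synthesis, and Pdp1 (0.81), which activates pyruvate dehydrogenase. They were followed by the chromatin remodelling subunit Smarcc2 (0.79), Fam221b (0.79), whose exons overlap Tmem8b so that its level is uncertain, and Osr1 (0.79). Osr1, a zinc-finger factor of connective tissue progenitors, stood at 3.74 to 9.45 (median 7.22) in Adm-high cells and 0.00 to 7.80 (median 0.81) in the other cells, where it was 7.80 in cell 3, 6.38 in cell 1, 3.00 in cell 12 and at most 0.81 in the rest. Its correlation was 0.45 inside the 8 Adm-high cells and 0.86 inside the 7 other cells. Inside the Adm-high cells the correlation was 0.33 for Fbxo7, 0.43 for Mbd1, 0.14 for Fech, 0.17 for Pdp1, 0.74 for Smarcc2 and 0.67 for Fam221b. Inside the other cells these were 0.63, -0.04, 0.68, 0.31, 0.89 and 0.57, in the same order. Fbxo7 and Pdp1 were detected in 0 of 7 other cells, so they passed the detection filter only through Adm-high cells.

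The genes most unlike Adm were Hnrnpc (-0.82), an RNA-binding protein, Baz1a (-0.82), a chromatin remodelling subunit, Lmf2 (-0.81), a lipase maturation factor, Cers2 (-0.80), a ceramide synthase, and Ssu72 (-0.80), a phosphatase of RNA polymerase II. Baz1a was detected in 0 of 8 Adm-high cells and 5 of 7 other cells, so it passed the detection filter only through the other cells. Cers2 was detected in all cells and ran against Adm inside both sets, with -0.88 in Adm-high cells and -0.68 in the other cells. The exons of Cers2 overlap those of Setdb1 and the exons of Baz1a those of Gm20403, so both levels are uncertain. Inside the Adm-high cells the correlation was -0.19 for Hnrnpc, -0.22 for Baz1a, -0.67 for Lmf2 and -0.24 for Ssu72. Inside the other cells these were -0.75, -0.57, -0.32 and -0.11, in the same order.

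**Figure D4:**
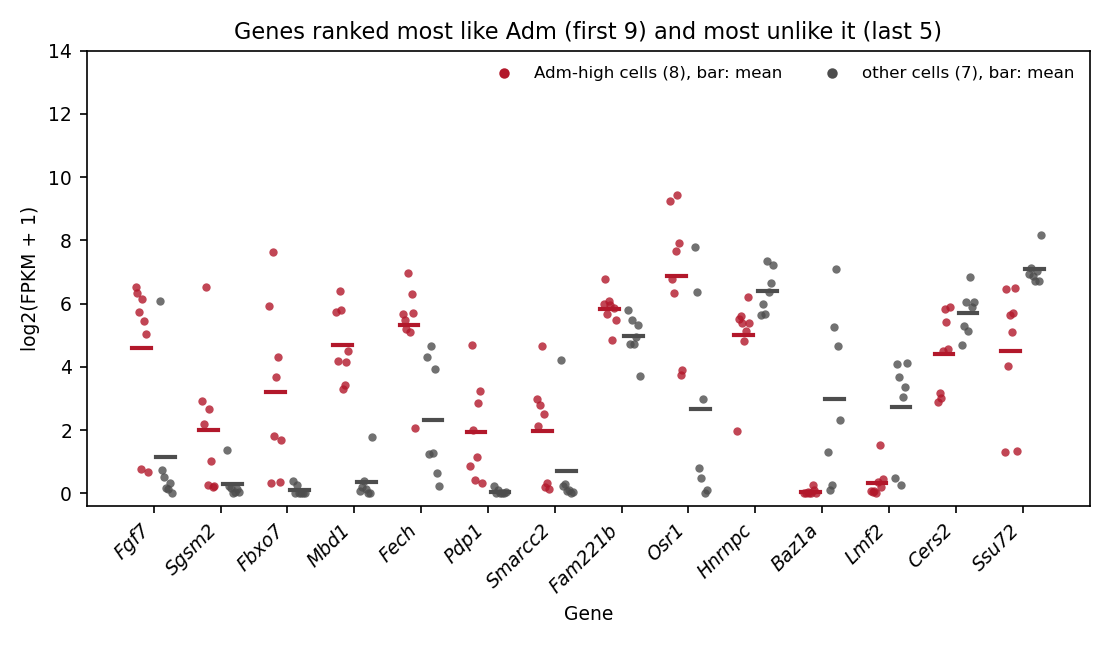
9 of the 10 genes ranked most like Adm and the 5 most unlike it as log2(FPKM + 1), 1 point per cell and a bar for the mean, with the 8 Adm-high cells in red left of the 7 other cells in grey. Mbd1 and Pdp1 have every red point above every grey one, Ssu72 every red point below every grey one, and the remaining genes overlap.

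Few rows separated the sets fully. In 2 of 7424 rows (0.0269%) every Adm-high cell lay above every other cell, and in 2 (0.0269%) every one lay below. Mbd1 was at 5.74, 4.18, 6.39, 5.80, 3.30, 3.42, 4.15 and 4.49 in Adm-high cells 6, 7, 10, 4, 2, 8, 14 and 5 and at 1.78 in cell 13 and 0.39 or less in the remaining others, a difference of 4.31. It did not follow the level of Adm within the 7 other cells (-0.04). Pdp1 was at 0.33 to 4.70 in Adm-high cells and 0.00 to 0.24 in the other cells, so that its separation lies partly below detection. Ruvbl1, an ATPase of chromatin complexes, was detected in 0 of 8 Adm-high cells (0.00 to 0.70) and 7 of 7 other cells (1.16 to 6.03). It therefore passed the detection filter only through the other cells. Ssu72 stood at 1.31 to 6.49 in Adm-high cells and 6.70 to 8.17 in the other cells.

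Among protein-coding genes with a named symbol, the widest differences in mean were found for Tspan17, a tetraspanin (5.03), and Cdh13, the adiponectin-binding T-cadherin (5.00). Mmp3 (4.41), Mbd1 (4.31), Osr1 (4.22) and complement C2 (4.19), whose exons overlap a neighbour, came next. Tspan17 was at 4.20 to 8.32 (median 6.97) in Adm-high cells and 0.00 to 5.58 (median 1.09) in the other cells, where cell 15 alone came within the Adm-high range. Cdh13 was at 0.79 to 9.57 (median 6.50) in Adm-high cells and at most 1.37 in the other cells. Siva1, an apoptosis regulator, Tmem29 and Ccn5, a matrix-associated protein, followed with 3.98, 3.87 and 3.86. C1qtnf12, which encodes the insulin-sensitizing fat hormone adipolin, was at 7.97, 7.21, 2.10, 6.60 and 8.20 in Adm-high cells 6, 7, 4, 8 and 14. It was detected in 0 of 7 other cells, with 0.00 in each, so it passed the detection filter only through Adm-high cells. On the lower side stood Rnaseh2c (-4.32), Tdp2 (-4.18), Ints11 (-4.16), Postn (-4.10) and Nmd3 (means of 2.16 in Adm-high cells and 6.16 in the other cells), which act in RNA and DNA repair, RNA processing, matrix and ribosome export. The exons of Rnaseh2c overlap those of Kat5 and the exons of Ints11 those of Pusl1, so both levels are uncertain. Tdp2, which frees DNA ends from topoisomerase, was detected in 1 of 8 Adm-high cells and 6 of 7 other cells.

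**Figure D5:**
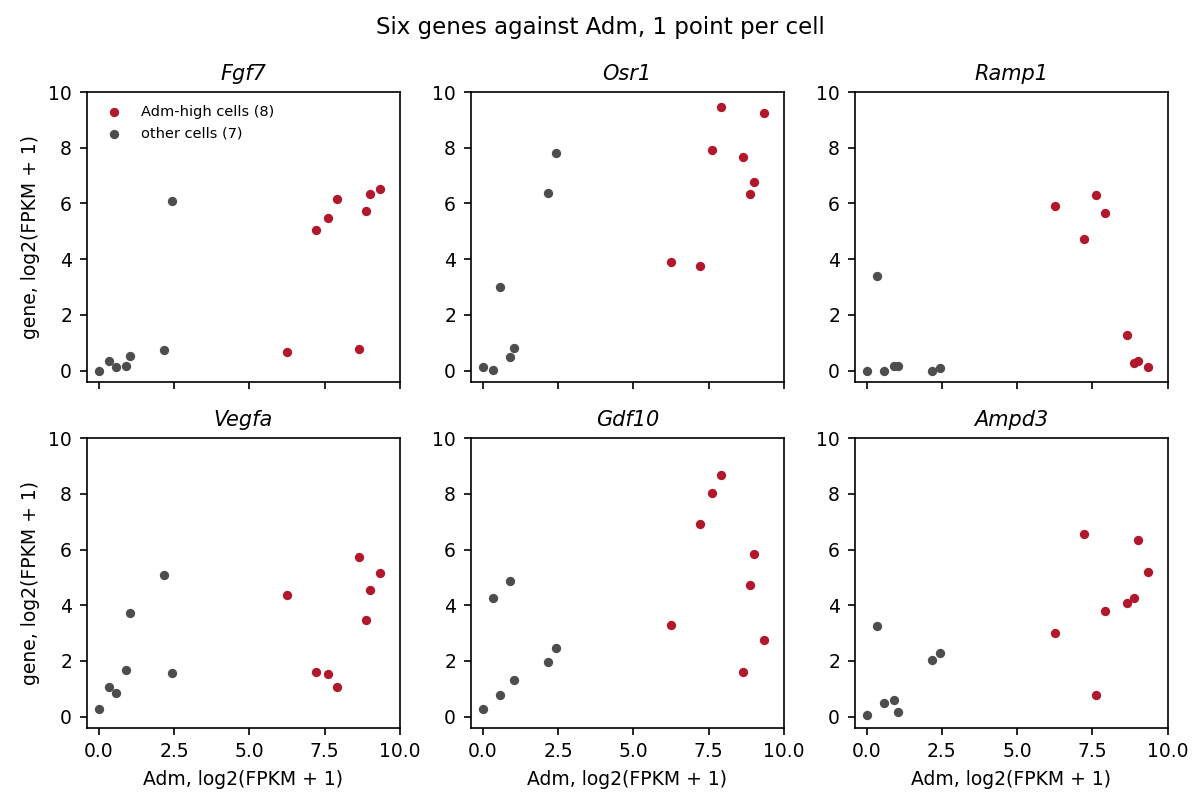
Fgf7, Osr1, Ramp1, Vegfa, Gdf10 and Ampd3 (vertical axes) against Adm (horizontal axes), all as log2(FPKM + 1), with 1 point per cell, red for the 8 Adm-high cells and grey for the 7 other cells. Ramp1 is high in red cells 2, 8, 14 and 5. Vegfa is high in red cells 6, 7, 10, 4 and 5 and in grey cells 1 and 9. Fgf7 is low in 2 red cells and high in 1 grey cell.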

How the data were processed

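Each Tomato+ cell gave 1 RNA library (SMART-Seq v4 3' DE kit, then Nextera XT, per the labels' protocols). TopHat2, Cufflinks and build GRCm38 are named in the submitters' processing notes. Which versions the authors ran is not stated in the sources at hand. The authors' deposited table holds 8446 rows (8441 distinct gene identifiers, 8431 matched to GENCODE M21, 8222 with the same symbol), 15 cell columns, each tied to a cell by the number in the sample title, and 18 columns with no name or values; 0 columns of values were left unused. The deposited values are log2 values, which no label states: they end at 13.69, and read as log2(FPKM + 1) a cell sums to 592948 FPKM on average, against 1.27e+07 read as natural logarithms. Sorted columns agree within 0.0354 above 0.2, so the authors' values had been quantile-normalized. This equalizes the number of genes detected per cell and hides depth, which is unknown, so no counting interval for a gene can be given. FPKM divides by transcript length although a 3' kit does not yield more reads from longer genes, so long genes are understated.

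Means of log2(FPKM + 1) were compared between the 8 Adm-high and 7 other cells for the 7424 rows detected at 1 FPKM in 3 or more cells, without Adm, and a difference of 2 was called. No further pseudocount was added. No test was run, since the cells form 1 group, and no standard error or p-value was computed from cells. Single picked cells were not screened for doublets. The 32 gene lists held 470 genes, of which 331 had a row. Members and lists were chosen with earlier results of these data known. Genes named were Adm, the adrenomedullin and oxygen-sensing lists, the 10 most and 5 least correlated genes, the 10 highest and 5 lowest differences among called rows, and up to 2 per direction in each list. Predicted genes without a named symbol, small RNAs and pseudogenes were left out of the genes named by correlation or difference. Vegfa, Ldha and Slc2a1, among others, were named outside this rule. Per-cell examples, Fos, the mural gene and values that separate cells were picked after their values were seen. One gene among the 10 most correlated is not reported here. Promoter sequences are RefSeq's, GRCm38.p6. Alternatives changed the Adm threshold, the summary, the scale, the treatment of low values and rows, the size called, the correlation and the cells included. Python 3.11.15, numpy 2.4.6, pandas 2.3.3 and scipy 1.17.1 were used, and the scripts were tested on simulated data.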

Additional observations from a re-analysis of the deposited data

How the results depend on the processing

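No paired analysis was possible because there is 1 group and its cells carry only a number. Depth is unknown, the sets are defined by Adm and the cells are 1 sample, so counts past a size describe these cells only. With Adm-high set at 5 FPKM the same 8 cells were taken and all counts were equal. Against 306 rows higher and 277 lower, the counts were 612 and 690 by medians, 751 and 716 by the log2 ratio of mean FPKM + 1, 1324 and 1300 at a difference of 1, 472 and 485 without cells 1, 11 and 14, 431 and 468 with Adm-high set at 1 FPKM, and 231 and 162 for rows detected in 8 or more cells. Leaving out 1 cell at a time gave 301 to 370 higher and 289 to 347 lower. Rows not overlapping, 2 above and 2 below, were 19 and 10 at 1 FPKM, 19 and 23 without cells 1, 11 and 14, 6 and 5 without cells 5 and 13, 7 and 6 without cells 11 and 13, 1 and 1 at detection in 8 or more cells, 1 and 2 with values under 1 FPKM set to 0, and 2 to 5 and 2 to 7 leaving out 1 cell.
For the rows with a correlation of 0.7 or more, 37, the counts were 23 with values under 1 FPKM set to 0, 24 at detection in 8 or more cells, 21 by Pearson, 91 without cells 1, 11 and 14, and 26 to 54 leaving out 1 cell, and of the 10 most like Adm 3 stayed among the 10 by Pearson. Lists whose share of higher genes was above 3 times that of all rows, 4 of those with 5 or more rows, were 1 at detection in 8 or more cells, 1 at a difference of 1, and 2 to 6 leaving out 1 cell. With Adm-high set at 1 FPKM the calls were 2 for the Cd142 list (5), 3 for hypoxia targets (1), 2 for angiogenic ligands (1), 0 for immediate early genes (1) and 2 for inflammatory genes, lower (4). By medians they were 3 for Cd142, 5 for hypoxia targets, 2 for angiogenic ligands and 0 for cell cycle (3 lower). By the ratio of mean FPKM + 1 they were 2 for angiogenic ligands, 0 for immediate early genes and 7 for inflammatory genes. At a difference of 1 they were 6 for hypoxia targets, 6 for angiogenic ligands and 4 for immediate early genes. These lists held 31, 20 and 24 genes used. Of all 7424 rows, 431 were higher with Adm-high set at 1 FPKM, 612 by medians, 751 by the ratio and 1324 at a difference of 1. Those lower were 468, 690, 716 and 1300, in the same order. The list counts are to be read beside these. At detection in 8 or more cells angiogenic ligands and cell cycle had 0. Without cells 1, 11 and 14 hypoxia targets had 3, angiogenic ligands 4 and immediate early genes 0. Without cells 5 and 13, and without cells 11 and 13 (chosen after seeing the data, as was leaving out each of the other cells), immediate early genes and cell cycle had 0. Leaving out 1 cell gave 2 to 6 for Cd142, 1 to 2 for hypoxia targets and angiogenic ligands, 0 to 2 for immediate early genes, 2 to 4 for inflammatory genes and 0 to 4 for cell cycle. The causes were not tested. Of 4383 values for 191 other results, 54 moved and 0 called ones changed sign.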

Other observations

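Ampd3, the AMP deaminase of red cells and other tissues, lies 138.386 kb from Adm on chromosome 7 and was picked after its values were seen. It averaged 4.25 in Adm-high cells and 1.27 in the other cells, a difference of 2.98, was detected in 7 of 8 and 3 of 7 cells, and had a rank correlation of 0.78 with Adm, of 0.43 within the Adm-high cells and of 0.36 within the others. Its exons overlap those of Rnf141. The other 6 rows within 500 kb differed by -1.21 to 1.09.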
